A study of Mus musculus with 30 samples.

Results

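Prokr2 and 8 other receptor and ligand genes of neuroblast migration (Robo1, Robo2, Slit1, Slit2, Erbb4, Dcc, Ntn1 and Nrp2) were followed in the subventricular zone (SVZ) and the striatum of mice whose neural precursors had been ablated. The 9 genes were chosen by name as receptors and ligands of this migration, and on earlier results of the SVZ libraries, in which Prokr2 stood out in the difference between ablated and control mice. The values of the 9 genes in that comparison are therefore given as a description, with no test. All 9 were found among the 53278 gene symbols counted in the SVZ and the 50508 counted in the striatum, and all 9 passed the filter on low counts in both tissues. Prokr2 passed it only through the control mice, in the SVZ and in the striatum alike.

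The study crossed a transgene with a drug. NestinTK+ mice carry herpes thymidine kinase under the second-intron enhancer of the rat Nestin gene, and ganciclovir (GCV) kills dividing cells that hold this enzyme. NestinTK- mice are their wild-type littermates, and all mice were labelled C57Bl/6. An osmotic minipump under the skin delivered GCV or phosphate-buffered saline (PBS) for several weeks, which made 4 groups: 5 NestinTK+GCV+ mice, in which the precursors were ablated, and 3 control groups of 4 NestinTK+PBS+, 3 NestinTK-GCV+ and 3 NestinTK-PBS+ mice. The same 15 mice gave 1 SVZ and 1 striatum library each, so p-values measure the spread between mice. Mice are numbered within their group, with the same number for a mouse in both tissues. Nestin is also made outside the SVZ, and the labels give neither the sex nor the age of single mice.

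In the adult rodent brain, neuroblasts born in the SVZ travel in chains along the rostral migratory stream to the olfactory bulb, where they become interneurons. Prokineticin 2, made in the bulb, acts on the G protein-coupled receptor Prokr2 and is needed for this route. Slit proteins repel neuroblasts through Robo receptors, neuregulins act on the tyrosine kinase Erbb4, netrin-1 (Ntn1) acts on Dcc, and Nrp2 is a co-receptor for class 3 semaphorins. A bulk library cannot tell fewer cells of a type from less RNA per cell.

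The SVZ libraries held 8.36 to 9.60 M (mega) counts in NestinTK+GCV+ mice and 8.95 to 21.1 M in controls, and the striatum libraries 2.63 to 3.37 M and 2.78 to 4.69 M. Levels are given as CPM, each count divided by its library size in M after scaling by the trimmed mean of M-values (TMM). The SVZ libraries, labelled as neural precursor cells, held 1041 to 3219 CPM of the spiny neuron gene Ppp1r1b, so they hold RNA of striatal neurons beside that of precursors. Ttr, the main choroid plexus transcript, took 4.49% to 9.88% of the counts in 3 control SVZ libraries (NestinTK-PBS+ mice 1 and 2 and NestinTK+PBS+ mouse 1) and at most 0.0789% in the other 12. Markers of cortical excitatory neurons summed to 719 and 731 CPM in the SVZ of NestinTK+GCV+ mouse 2 and NestinTK-GCV+ mouse 3, against at most 182 CPM elsewhere. In the striatum, NestinTK+PBS+ mouse 4 stood apart, with 1452 CPM of choroid plexus markers against at most 57.2 CPM in the others, and NestinTK-GCV+ mouse 3 again held most cortical marker RNA (702 CPM). Among neuroblast markers, 6 of 15 were called lower in the ablated SVZ, against 1.22% of all genes (Dcx had 15.5 to 26.1 CPM against 23.4 to 108 CPM in controls), and their summed level was 786 to 1066 CPM against 775 to 1450 CPM. Of dividing cell markers 4 of 12 were called lower (summed 8.67 to 46.2 CPM against 58.4 to 170 CPM), of choroid plexus markers 5 of 10 and of ependymal markers 1 of 10. The part of these lists in the members' SVZ levels was not tested. In the striatum 0 of the 15 neuroblast markers were called.

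Prokr2 lies on the minus strand of chromosome 2 (GRCm38 positions 132337733 to 132385447). Its promoter is shown because Prokr2 is the gene with no count in the ablated SVZ, and that of Robo1 because it is the member with most ablated mice above every control. Both are the 250 bases before the start in RefSeq (GRCm38.p6), at chr2:132385448-132385697 on the minus strand and chr16:72662899-72663148 on the plus strand. The Robo1 start lies inside the gene span given below, and the bases before the upstream end of that span were not searched. The letters searched, on both strands, were CAGCTG (an E-box), TAATTA (a homeodomain core) and TGACGTCA (the cyclic AMP response element), and matches are in capitals.
Prokr2: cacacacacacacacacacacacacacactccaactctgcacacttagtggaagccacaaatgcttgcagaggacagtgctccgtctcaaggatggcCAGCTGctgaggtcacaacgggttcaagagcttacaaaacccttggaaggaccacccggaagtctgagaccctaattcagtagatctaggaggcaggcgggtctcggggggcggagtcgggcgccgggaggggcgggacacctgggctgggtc
Robo1: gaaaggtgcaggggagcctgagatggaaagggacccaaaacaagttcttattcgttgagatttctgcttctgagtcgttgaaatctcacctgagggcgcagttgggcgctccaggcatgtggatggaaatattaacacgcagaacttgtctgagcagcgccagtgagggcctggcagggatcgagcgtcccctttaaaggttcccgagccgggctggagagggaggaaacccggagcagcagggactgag

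The Prokr2 window holds 1 CAGCTG, beginning 153 bases before the start, and the Robo1 window holds none of the 3 motifs. Of 6 members with a promoter entry (8 starts in all, 3 of them for Robo2), the only other match was a CAGCTG 37 bases before the most downstream Robo2 start. CAGCTG was present in 13.0% of the 32851 mouse promoters of the same length, TAATTA in 4.84% and TGACGTCA in 1.55%. These matches are letters in a window and were not tested as binding sites. The other members are protein-coding genes whose exons overlap those of no other gene in the annotation (GENCODE, GRCm38). They include Robo1 on chromosome 16 (72308306 to 73046095, plus strand), Robo2 on chromosome 16 (73891839 to 74411825, minus strand), Slit1 on chromosome 19 (41600257 to 41743665, minus strand) and Slit2 on chromosome 5 (47983138 to 48307733, plus strand). Erbb4 on chromosome 1 (68032186 to 69108059, minus strand), Ntn1 on chromosome 11 (68209364 to 68400823, minus strand) and Nrp2 on chromosome 1 (62703285 to 62818695, plus strand) complete the set, and Dcc lies on chromosome 18.

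Prokr2, the prokineticin receptor, had 0 counts in the SVZ of all 5 NestinTK+GCV+ mice, out of 43.7 M counts between them. The 10 control mice had 27 to 200 counts each. In NestinTK+PBS+ mice the level was 6.99 CPM in mouse 1, 11.3 in mouse 2, 11.5 in mouse 3 and 5.38 in mouse 4. NestinTK-GCV+ mice held 12.6 CPM in mouse 1, 3.64 in mouse 2 and 12.2 in mouse 3. NestinTK-PBS+ mice held 2.06 CPM in mouse 1, 1.93 in mouse 2 and 10.6 in mouse 3. Every ablated mouse was thus below every control, although the control levels themselves spread from 1.93 to 12.6 CPM. A count of 0 allows up to 3 counts, or 0.321 to 0.418 CPM in these libraries (counting error only). The mean of these limits, 0.368 CPM, is taken as the ablated level in this and the later fold bounds. It was at least 21.3-fold lower than the control mean of 7.83 ± 4.32 CPM (SD, n = 10). It was 5.24-fold lower than the lowest control, a bound that is smaller for the ablated library with the highest limit.

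Of 16375 genes tested, 24 (0.147%) had every ablated mouse below every control. Only 2 (0.0122%), Prokr2 and the transporter gene Slc16a12 (named after its values were seen), had 0 counts in every ablated mouse and a count in every control, and Slc16a12 had a single count in its lowest control. The 2 lowest Prokr2 levels among the controls were in NestinTK-PBS+ mice 1 and 2, both with high Ttr. The other high-Ttr control, NestinTK+PBS+ mouse 1, held 6.99 CPM. The part of high Ttr in these levels was not tested. Over the 7 control libraries without high Ttr, Prokr2 was 3.64 to 12.6 CPM, and the ablated level at least 26.1-fold lower than their mean.

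**Figure D1:**
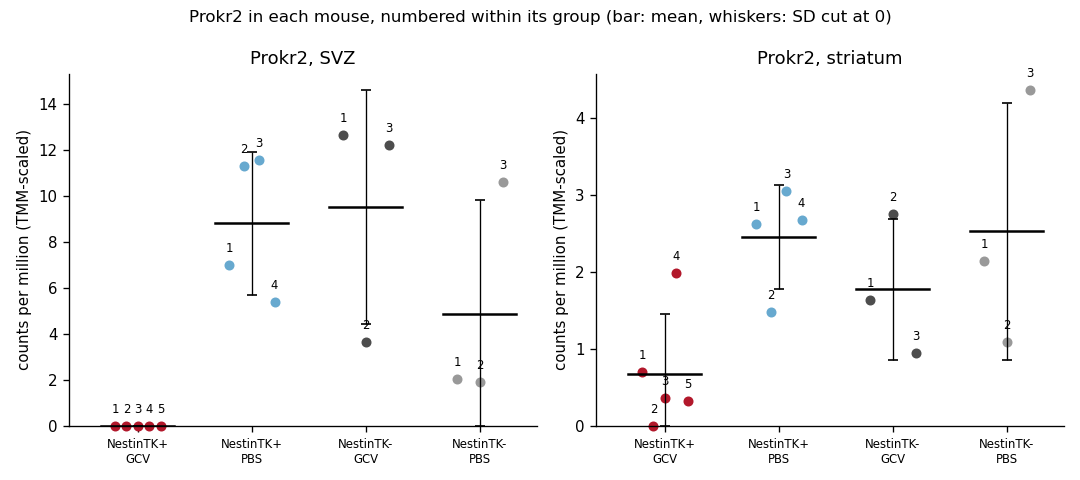
Prokr2 in CPM (TMM-scaled, linear axis) in the SVZ (left) and the striatum (right); each point is a mouse with its number within the group, the bar is the group mean and the whiskers are 1 SD, cut at 0. All 5 NestinTK+GCV+ mice sit at 0 in the SVZ, below controls at 1.93 to 12.6 CPM, and in the striatum 4 of the 5 lie below every control while mouse 4 lies at 1.99 CPM.

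Each control group alone gave the same picture. The ablated level was at least 23.9-fold lower than the mean of NestinTK+PBS+ mice, at least 25.8-fold lower than that of NestinTK-GCV+ mice and at least 13.2-fold lower than that of NestinTK-PBS+ mice. Neither GCV without the transgene nor the transgene without GCV moved Prokr2 past the test. GCV in NestinTK- mice gave a log2 fold change of 0.97 (95% interval -1.52 to 3.46, edgeR adjusted p = 0.927) and the transgene under PBS one of 0.86 (-1.49 to 3.21, adjusted p = 1). Both intervals hold changes of more than 2-fold in either direction.

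The rest of the prokineticin system was hardly detected. Prok2, the ligand made in the olfactory bulb, had 34 counts in the control SVZ, all in 2 of 10 mice, and 0 in the ablated SVZ. Prokr1, the sister receptor, had 3 counts in 1 control SVZ and 0 in the ablated ones. Prok1 had 2 counts in the ablated SVZ and 0 in controls. In the striatum the 3 genes had at most 3 counts in any mouse. None of the 3 passed the filter, so none was tested.

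The choice of the genes rested on the SVZ, so tests are given in the striatum, although earlier striatal results were also known. Prokr2 was low there in all mice. NestinTK+GCV+ mice 1 to 5 had 2, 0, 1, 7 and 1 counts, which is 0.705, 0, 0.370, 1.99 and 0.332 CPM. Controls had 4 to 18 counts and 0.944 to 4.36 CPM, with a median of 2.38 CPM. Of the ablated mice 4 were below every control, and mouse 4 was above 4 of the 10 controls.

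The striatal Prokr2 log2 fold change was -1.63 (SE 0.61, 95% interval -2.88 to -0.38), with an edgeR adjusted p = 0.337 over 15419 genes. It missed both the unadjusted threshold of the study (p of at most 0.01 with a 2-fold change) and an adjusted p under 0.05. An exact permutation test on log2 CPM (two-sided, 3003 arrangements, difference -1.31) gave p = 0.00233 for this gene alone. Prokr2 passed the filter here only through the controls, since mouse 4 alone of the ablated mice was above 1 CPM. Its striatal p-values are therefore a description. Without NestinTK+GCV+ mouse 4 the change was -2.58 (edgeR adjusted p = 0.199), past the study's threshold. It also passed without NestinTK-GCV+ mouse 3 (-1.72, adjusted p = 0.355) and without NestinTK-PBS+ mouse 2 (-1.71, adjusted p = 0.329). These were the only 3 of 15 such fits to pass. Leaving out NestinTK+GCV+ mouse 1, 2, 3 or 5 instead gave -1.63, -1.34, -1.48 and -1.46, short of that threshold. Within NestinTK+ mice GCV gave -1.75 (95% interval -3.23 to -0.27, adjusted p = 0.383), and the genotype by drug interaction was -1.25 (-3.43 to 0.93, adjusted p = 0.627).

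None of the 9 genes was called in the striatum in the comparison of NestinTK+GCV+ with control mice. Over all 15419 genes the called share was 0.24% lower and 0.454% higher, and 0.182% had an adjusted p under 0.05. Every member overlapped between the groups there, while 0.253% of genes had every ablated mouse below every control and 0.279% every ablated mouse above.

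Robo1 and Robo2 are the receptors through which neuroblasts read Slit. Robo1 in the SVZ was 60.0, 47.6, 41.6, 39.97 and 49.1 CPM in ablated mice 1 to 5. Controls ranged from 7.60 to 41.3 CPM with a median of 23.6 CPM. Thus 4 of 5 ablated mice were above every control, and the fifth was exceeded by NestinTK-GCV+ mouse 1 alone. The fitted log2 fold change was 0.92 (SE 0.33). By group, control means were 23.7 ± 7.59 (SD, n = 4) in NestinTK+PBS+, 29.9 ± 14.3 (n = 3) in NestinTK-GCV+ and 22.5 ± 14.8 CPM (n = 3) in NestinTK-PBS+ mice, against 47.6 ± 7.92 CPM (n = 5) in ablated mice.

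In the striatum Robo1 overlapped fully. Ablated mice held 15.9 to 27.6 CPM and controls 12.6 to 30.03 CPM, and the log2 fold change was 0.0046 (95% interval -0.38 to 0.39, edgeR adjusted p = 0.996). This interval excludes a 2-fold change of Robo1 in either direction.

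Robo2 in the SVZ was 57.6 to 126 CPM (median 83.7) in ablated mice and 38.4 to 107 CPM (median 56.2) in controls, and the log2 fold change was 0.41 (SE 0.23). All 5 ablated mice were above the control median, but the groups overlapped. In the striatum the change was -0.08 (95% interval -0.41 to 0.25, adjusted p = 0.912), again within 2-fold. The transgene under PBS gave -0.46 (-0.84 to -0.08, edgeR adjusted p = 0.748), with the lowest value, 39.8 CPM, in NestinTK+PBS+ mouse 4.

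Slit1 and Slit2 are the secreted repellents, and Slit1 is made by neuroblasts themselves. Slit1 in the SVZ was 26.4, 26.1, 27.8, 7.37 and 55.0 CPM in ablated mice 1 to 5. Control values ran from 4.29 to 81.1 CPM with a median of 10.1 CPM. The highest Slit1 of all 15 mice was thus in a control, NestinTK+PBS+ mouse 4. The log2 fold change was 0.54 (SE 0.61) and turned to -0.15 against NestinTK+PBS+ mice alone. Among controls, NestinTK+PBS+ mice held 8.43 to 81.1 CPM and NestinTK-PBS+ mice 4.29 to 10.9 CPM, a difference of 2.15 on the log2 scale (95% interval 0.38 to 3.91, edgeR adjusted p = 1) that missed the threshold.

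Striatal Slit1 was the member with a call in the tests of drug and genotype. NestinTK-PBS+ mice 1 to 3 held 4.29, 4.80 and 4.60 CPM. NestinTK-GCV+ mice 1 to 3 held 4.89, 13.5 and 13.7 CPM. NestinTK-GCV+ mouse 1 was thus close to the NestinTK-PBS+ mice. NestinTK+PBS+ mice ranged from 4.99 to 13.3 CPM and ablated mice from 3.88 to 9.65 CPM.

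GCV in NestinTK- mice gave a Slit1 log2 fold change of 1.23 (SE 0.43, edgeR adjusted p = 0.136), past the study's unadjusted threshold but not past correction. The same contrast in NestinTK+ mice gave -0.35 (95% interval -1.09 to 0.40). The difference between the genotypes, the interaction, was -1.57 (SE 0.56, edgeR adjusted p = 0.166), again past the unadjusted threshold alone. Slit1 was the 1 member of 9 called in each of these 2 tests, where 2.46% of all genes were called for GCV in NestinTK- mice and 3.28% for the interaction. Leaving out 1 mouse at a time ended the first call in 6 of 15 fits (without NestinTK-GCV+ mouse 2 or 3, any NestinTK-PBS+ mouse, or NestinTK+GCV+ mouse 5) and the second in 10 of 15. Without NestinTK-GCV+ mouse 3 the change under GCV was 1.01 and without mouse 2 it was 1.03. Cortical marker RNA in the striatum was highest in NestinTK-GCV+ mouse 3 (702 CPM), with 146 CPM in mouse 2 and 60.1 CPM in mouse 1, and was 416 CPM in NestinTK+PBS+ mouse 2, the other high Slit1 library (13.3 CPM). Its part in the result was not tested.

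Slit2 did not separate the groups in either tissue. In the SVZ the range was 2.21 to 22.9 CPM in ablated mice and 5.46 to 36.8 CPM in controls, with a log2 fold change of -0.07 (SE 0.54). The striatal change was -0.08 (95% interval -0.64 to 0.48, adjusted p = 0.95).

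**Figure D2:**
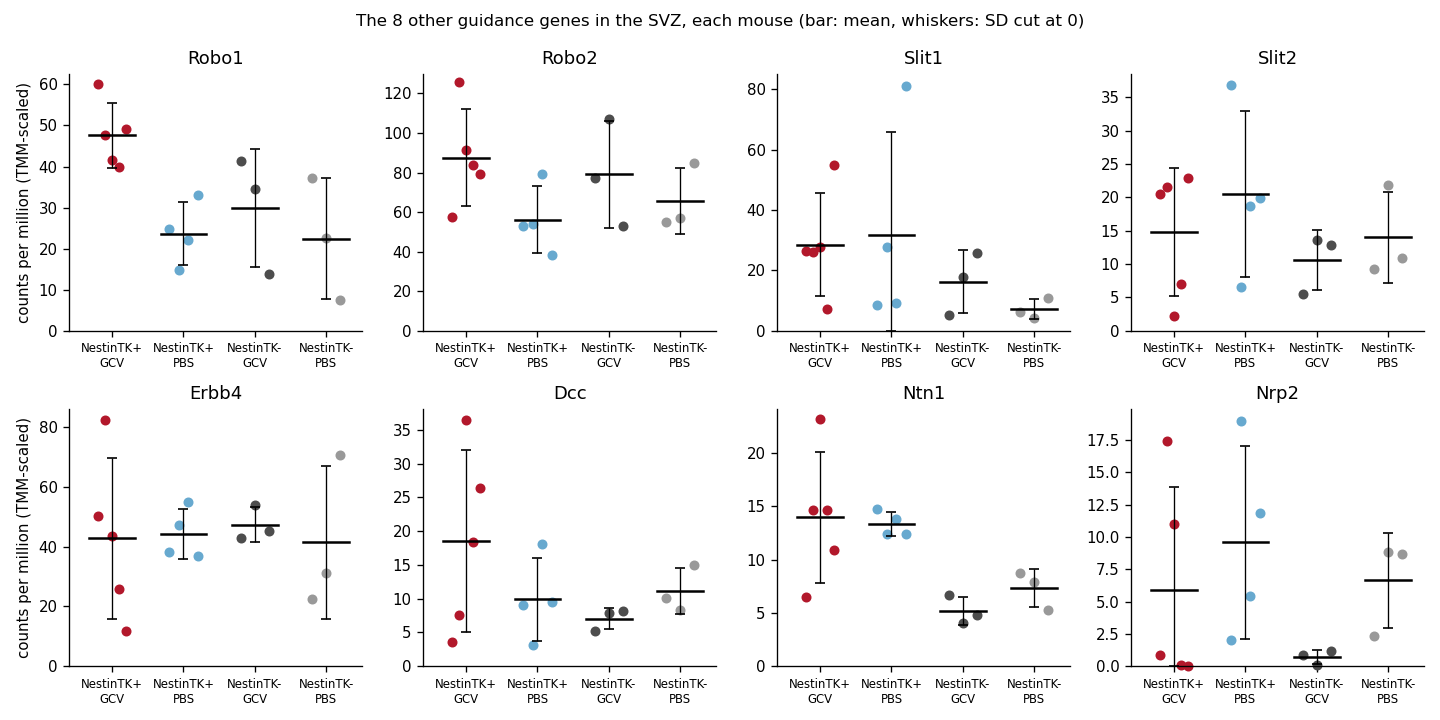
The 8 other members in the SVZ, in CPM (TMM-scaled, linear axes starting at 0), by group; points are mice, bars are means and whiskers 1 SD, cut at 0. Robo1 is the panel in which 4 of 5 NestinTK+GCV+ mice (39.97 to 60.02 CPM for the 5) lie above every control, and Nrp2 in NestinTK-GCV+ mice lies between 0.110 and 1.21 CPM.

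Erbb4, a neuregulin receptor of migrating neuroblasts and of interneurons, was 11.6, 25.8, 43.5, 50.2 and 82.4 CPM in the ablated SVZ and 22.6 to 70.6 CPM (median 43.9) in controls. The ablated mice thus held both the lowest and the highest value of the 15. The highest was mouse 2, whose cortical marker RNA was 719 CPM, and the lowest mouse 5, with 56.6 CPM of it. NestinTK-GCV+ mouse 3, with 731 CPM of cortical marker RNA, held 45.1 CPM of Erbb4. The part of this RNA in the Erbb4 levels was not tested. The log2 fold change was -0.05 (SE 0.34) in the SVZ. In the striatum it was 0.20 (95% interval -0.17 to 0.56, adjusted p = 0.742), which excludes a 2-fold change.

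Dcc is the attractive netrin receptor. SVZ values were 3.60, 7.53, 36.4, 18.4 and 26.4 CPM in ablated mice 1 to 5, against 3.12 to 18.0 CPM (median 8.66) in controls. Of the ablated mice 3 were above every control, while the other 2 lay among the lower controls. The log2 fold change was 0.97 (SE 0.51), the highest fitted value among the 9 members. In the striatum Dcc had 1 count in NestinTK+PBS+ mouse 4 and 8 to 48 counts in the others, and the change was 0.12 (95% interval -0.76 to 0.99, adjusted p = 0.955). Without that mouse it was -0.027 (edgeR adjusted p = 0.988).

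Ntn1, the netrin ligand, was 6.48 to 23.2 CPM (median 14.6) in the ablated SVZ and 4.08 to 14.7 CPM (median 8.31) in controls, a log2 fold change of 0.62 (SE 0.47). NestinTK+PBS+ mice held 12.4 to 14.7 CPM and the 6 NestinTK- mice 4.08 to 8.72 CPM. Against NestinTK+PBS+ mice alone the difference in ablated mice was 0.064, and against NestinTK-GCV+ mice 1.43. The transgene under PBS gave 0.87 (95% interval -0.50 to 2.23, edgeR adjusted p = 1). In the striatum Ntn1 had 3 to 26 counts a mouse, and the ablated change was 0.53 (-0.42 to 1.48, adjusted p = 0.735).

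Nrp2, the co-receptor for class 3 semaphorins, varied widely in the SVZ. It was 0.840, 17.4, 11.0, 0.107 and 0 CPM in ablated mice 1 to 5, and 0.110 to 19.0 CPM (median 3.90) in controls. Ablated mice 4 and 5, with 1 and 0 counts, were below every control, and the other 3 lay among the controls. The lowest control, NestinTK-GCV+ mouse 2, also had 1 count, so ablated mouse 4 differed from it by library size alone. NestinTK-GCV+ mice held 0.110 to 1.21 CPM against 2.37 to 8.86 CPM in NestinTK-PBS+ mice. That contrast gave -3.16 (SE 1.73, 95% interval -6.80 to 0.48, edgeR adjusted p = 0.687) and was not called. The ablated difference was -0.04 (SE 1.13), an SE too wide to show a 2-fold difference. In the fit of the 4 groups it was 2.98 against NestinTK-GCV+ mice and -0.70 against NestinTK+PBS+ mice, and the pooled value ran from -1.0 to 0.35 when leaving out each mouse.

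Striatal Nrp2 was 13.7 to 33.4 CPM in ablated mice and 8.43 to 45.4 CPM in controls, and all 5 ablated mice were above the control median of 12.4 CPM. The log2 fold change was 0.44 (95% interval -0.22 to 1.10, edgeR adjusted p = 0.672). The control at 45.4 CPM was NestinTK+PBS+ mouse 4, whose choroid plexus markers summed to 1452 CPM and spiny neuron markers to 4203 CPM, against at least 8171 CPM in the others. Without it the Nrp2 change was 0.79 (edgeR adjusted p = 0.1), still under 2-fold. The transgene under GCV gave 0.99 (0.16 to 1.83, edgeR adjusted p = 0.188).

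**Figure D3:**
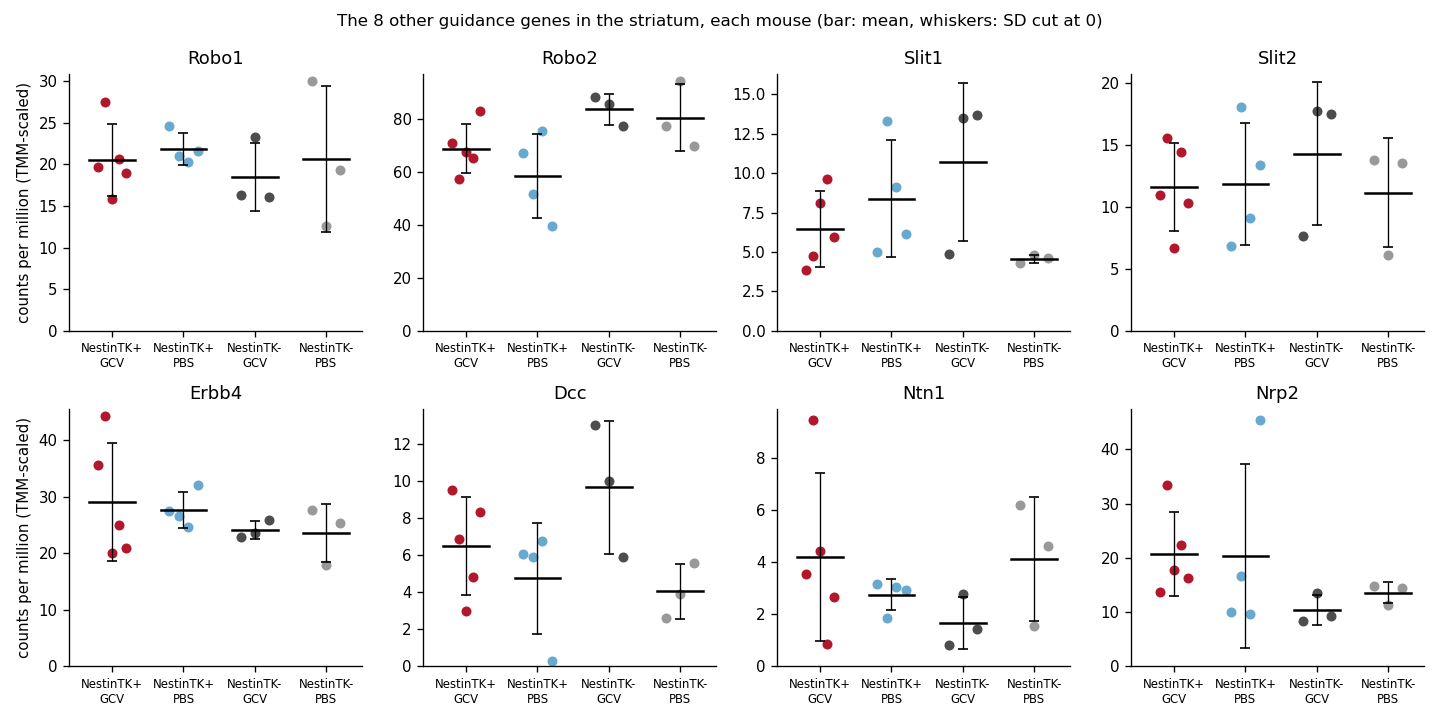
The 8 other members in the striatum, in CPM (TMM-scaled, linear axes starting at 0), by group; points are mice, bars are means and whiskers 1 SD, cut at 0. NestinTK-GCV+ mice 2 and 3 stand at 13.5 and 13.7 CPM in the Slit1 panel, and NestinTK+PBS+ mouse 4 stands at 45.4 CPM in the Nrp2 panel.

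Over the 9 members, the fitted SVZ difference was above 0 for 5 (Robo1, Robo2, Slit1, Dcc and Ntn1) and below 0 for 4, with a median of 0.41 on the log2 scale against -0.03 over all genes tested. Prokr2 alone passed the study's thresholds, beside 1.22% of genes called lower and 0.373% called higher in that comparison, and nothing is read from this since it chose the gene. In the striatum 5 members were above 0 and 4 below, with a median of 0.0046 against 0.0037 over all genes.

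**Figure D4:**
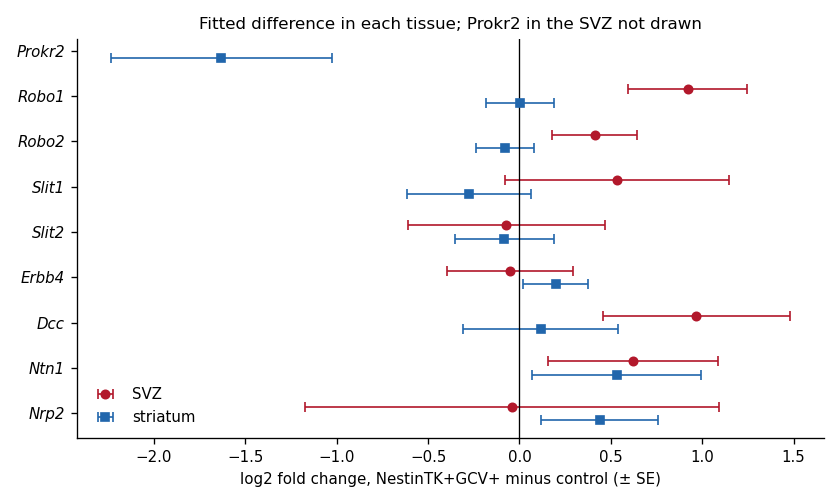
Log2 fold change of NestinTK+GCV+ against control mice with its SE (whiskers) for each member, SVZ as circles and striatum as squares; Prokr2 in the SVZ is left out because its ablated libraries are all at 0. SVZ values run from -0.07 for Slit2 to 0.97 for Dcc, and Prokr2 at -1.63 is the lowest striatal value.

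The drug and the transgene were also taken apart in mice that were not ablated. In the SVZ, 0 of the 9 members were called for GCV in NestinTK- mice (1.06% of all genes were) and 0 for the transgene under PBS (0.195%). At an unadjusted edgeR p under 0.05 the only member was Slit1, in the second of these. In the striatum, 0 members were called for the transgene under PBS (0.83% of genes), 0 for GCV in NestinTK+ mice (1.35%) and 0 for the transgene under GCV (2.1%). In striatal NestinTK- mice, GCV gave a Dcc log2 fold change of 1.25 (95% interval 0.09 to 2.40, edgeR adjusted p = 0.267) from 5.90 to 13.1 CPM against 2.62 to 5.57 CPM. In both tissues every GCV mouse carries a lower library number in the labels than every PBS mouse, so drug and library number cannot be told apart.

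Per length, the mean control SVZ levels of the members ran from 0.510 for Nrp2 to 3.88 for Robo2. Mean RPKM (CPM divided by exon length in kilobases) was 3.88 ± 1.20 (SD, n = 10) for Robo2, 3.59 ± 1.09 for Erbb4, 3.32 ± 3.91 for Slit1, 1.52 ± 0.676 for Robo1 and 1.45 ± 0.632 for Ntn1. Prokr2 followed with 0.988 ± 0.546, then Dcc with 0.717 ± 0.329, Slit2 with 0.613 ± 0.365 and Nrp2 with 0.510 ± 0.512. Each neighbour in this order differed by less than the larger of the 2 SDs, so only distant ranks stand apart.

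Members were next set against the level of the neuroblast markers (their average log2 CPM) over the 10 control SVZ libraries. Pearson's r was 0.61 for Nrp2 (permutation p = 0.058, rho 0.64), 0.52 for Slit1 (permutation p = 0.118, rho 0.49) and 0.48 for Prokr2 (permutation p = 0.168, rho 0.43). It was -0.53 for Slit2 (permutation p = 0.112) and -0.40 for Robo1 (permutation p = 0.251), and the other 4 lay between -0.26 and 0.42. No member reached a permutation p under 0.05, which 5.07% of all genes did, and the smallest adjusted p over all genes was 0.941 among the members. Without the 2 mice farthest from the median of the list (NestinTK+PBS+ mice 2 and 4) r was 0.53 for Prokr2, 0.32 for Nrp2 and 0.037 for Slit1. The Slit1 value thus rests on those mice together, and the Nrp2 value does so in part. Leaving out each mouse alone gave 0.48 to 0.73 for Nrp2. Without the same 2 mice r turned from -0.12 to 0.49 for Robo2, from -0.26 to 0.31 for Dcc and from 0.10 to -0.38 for Ntn1.

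The genes most like Prokr2 over the same 10 libraries, by Pearson's r of log2 CPM, were Shisa8 (0.91), Atat1 (0.90), Ephb3 (0.90), Lrrc55 (0.89), Aimp1 (0.87), Ppil3 (0.87), Slain1 (0.86), Neo1 (0.85), Rnf115 (0.85) and Plxna4 (0.85). These r values are the highest picked from 16375 genes over 10 mice, and they were not tested. The lowest Prokr2 levels among these libraries were in high-Ttr controls, whose part in r was not tested. Of these 10 genes, Ephb3 (an ephrin receptor), Neo1 (neogenin, a netrin receptor) and Plxna4 (a plexin) were on the list of other guidance genes. That list made up 75 of the 16375 genes tested, and nothing is read from the overlap. Their fitted ablated differences were -0.26, -0.17 and 0.69 on the log2 scale. Among the members Erbb4 was nearest to Prokr2 (r = 0.69, rho 0.52) and Robo1 farthest (r = -0.45).

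The other guidance genes were taken from a list of 83 in 9 families, of which 82 were counted and 75 tested in each tissue. In the SVZ 3 of the 75 were called lower and 1 higher, where 1.22% and 0.373% of all genes were. At an unadjusted edgeR p under 0.05 the numbers were 4 lower and 6 higher, beside 6.09% and 3.73% of all genes, and none had an adjusted p under 0.05. The list was drawn up with earlier results of these libraries known, so its counts are a description. The list's median log2 fold change was 0.07, against -0.03 over all genes, with 41 of 75 above 0.

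Of the 3 that fell, Gfra1, a receptor of glial cell line-derived neurotrophic factor, went from 7.27 to 37.6 CPM in controls to 3.49 to 8.12 CPM in ablated mice (log2 fold change -1.52, SE 0.50, edgeR adjusted p = 0.373). Efna5, an ephrin ligand, went from 12.4 to 42.1 CPM to 3.53 to 19.8 CPM (-1.23, SE 0.42, adjusted p = 0.385). Draxin, a netrin-binding guidance protein, had 4 counts in 1 ablated mouse and 0 in the others, and 0 to 171 counts in controls. Slit3, the third Slit, was the gene that rose, from 12.5 to 66.6 CPM to 30.7 to 133 CPM (1.14, SE 0.40, adjusted p = 0.385). The 7 tested genes of the Slit and Robo family on this list, Slit3 included, had a value above 0 in this fit, with a median of 0.43, and Slit3 alone passed the test. Slit2, a member of the same family described above, was at -0.07.

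Leaving out 1 mouse at a time ended the call of Draxin in 10 of 15 fits, of Slit3 in 10, of Efna5 in 11 and of Gfra1 in 7, while the log2 fold changes kept their sign (-8.26 to -4.40, 0.84 to 1.34, -1.52 to -0.998 and -1.65 to -1.31). Unc5a, a repulsive netrin receptor, had the smallest adjusted p of the list (edgeR, 0.37) with 41.4 to 106 CPM in ablated mice and 23.9 to 58.3 CPM in controls, but at 0.83 (SE 0.27) fell short of 2-fold. The semaphorin partners Nrp1 (-0.32, SE 0.56) and Plxna1 (1.05, SE 0.55) and the neuregulin Nrg1 (-0.11, SE 0.59) did not pass the test.

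In the striatum none of the 75 other guidance genes was called by edgeR (0.24% of all genes were called lower and 0.454% higher). An unadjusted p under 0.05 was reached by 5 lower and 5 higher, beside 5.31% and 5.19% of all genes, and none had an adjusted p under 0.05. The median was -0.06, against 0.0037 over all genes, and 33 of 75 were above 0. Slit3, Gfra1 and Efna5 had striatal levels of 2.82 to 7.26, 40.9 to 56.2 and 7.05 to 13.1 CPM in ablated mice and 0.738 to 6.31, 32.9 to 51.8 and 7.47 to 14.8 CPM in controls.

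**Figure D5:**
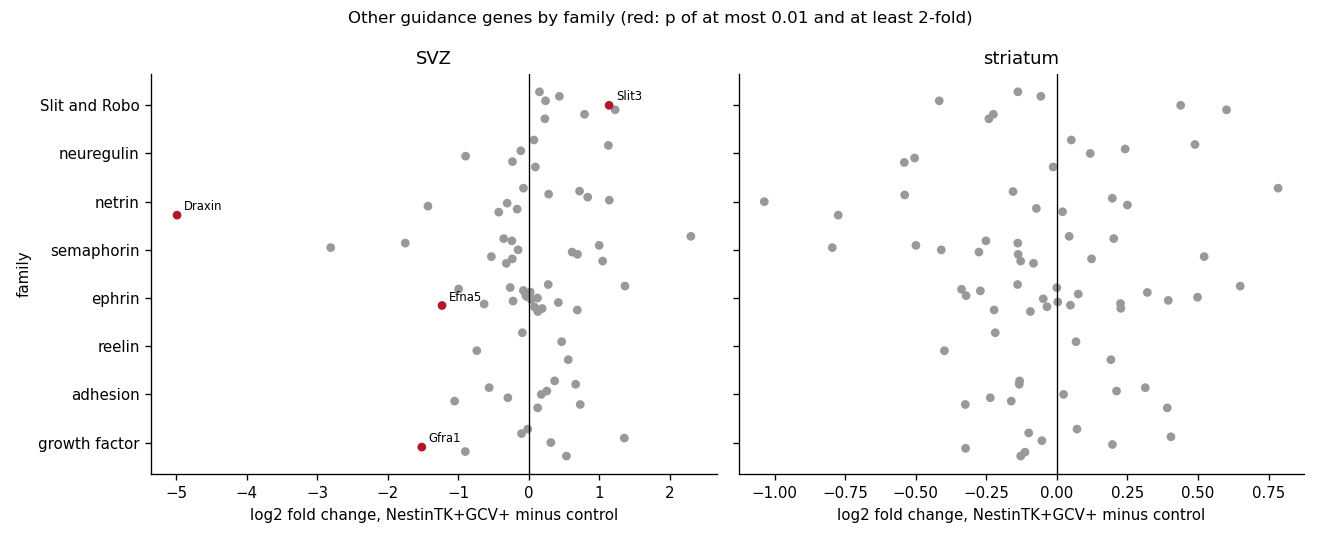
Log2 fold change of NestinTK+GCV+ against control mice for the 75 other guidance genes tested in the SVZ (left) and the striatum (right, narrower axis), by family; each point is a gene and red marks those with p of at most 0.01 and at least 2-fold. The SVZ panel has 4 red points (Gfra1, Efna5 and Draxin below 0, Slit3 above) and the striatum panel has 0.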

How the data were processed

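RNA was sequenced from the SVZ (SMART-Seq v4, full-length) and the striatum (QuantSeq 3′ FWD) of the same 15 mice. The authors trimmed reads with Trimmomatic (version 0.36 in the submitters' processing notes, another version in the published methods), aligned them to mm10 with STAR 2.5.3a and Gencode annotation, and deposited raw counts per gene symbol from featureCounts. The strand setting is not given in the sources used here. Trimming, the gene model and the 3′ kit affect which reads a gene receives, so levels were compared within a tissue only. Every deposited column was matched to a mouse by its label.

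Only genes above 1 CPM in 3 or more libraries entered a tissue's fit (16375 in the SVZ, 15419 in the striatum). They were scaled by TMM and tested with edgeR 4.0.16 (glmQLFit and glmQLFTest, R 4.3.3), with Benjamini-Hochberg adjustment over all genes of the tissue. NestinTK+GCV+ mice were compared with the 3 control groups pooled, as in the study, and the 4 groups were fitted for drug, transgene and interaction. A call needed an unadjusted p no higher than 0.01 and a change of 2-fold or more. Log2 CPM used a prior count of 2. CPM here are counts over TMM-scaled library sizes, and RPKM divides them by GENCODE exon length (GRCm38), in the SVZ only. Intervals are 95%. The limit for 0 counts is 3 counts per library. Scripts were tested on simulated data.

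Named genes were all 9 members, the called genes among the other guidance genes, their direct partners, the 10 genes most like Prokr2 and cell type markers. The members and lists were chosen with earlier results of these data known. Alternatives were DESeq2 1.42.0, limma-voom (limma 3.58.1, the package the study names), other scalings and filters, other control sets and leaving out each mouse. Promoters are RefSeq's. Permutation tests used 100000 resamples in Python 3.11.15 with scipy 1.17.1, or all arrangements where said to be exact.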

Additional observations from a re-analysis of the deposited data

Results flagged for a closer look

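Dcc in the striatum of NestinTK+PBS+ mouse 4 (0.267 CPM) stood far from the other 3 NestinTK+PBS+ mice, the nearest at 5.91 CPM, with a gap of 0.944 of the group's range on the log2 scale, and from the other controls, with a gap of 0.482. Nrp2 in the same library (45.4 CPM, next highest control 16.6 CPM) had a gap of 0.603 of the control range. This library also held 1452 CPM of choroid plexus markers, and the part of that in either value was not tested. Ntn1 in the striatum of NestinTK+PBS+ mouse 2 (1.85 CPM, nearest 2.94 CPM) had a gap of 0.864 of the range of NestinTK+PBS+ mice. In all, 4 of 53 groups of values had such a distant sample, and chance alone marks about 1 in 20.

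The effect of GCV on striatal Slit1 differed between genotypes by -1.57 on the log2 scale (edgeR interaction, adjusted p = 0.166), with 1.23 in NestinTK- and -0.35 in NestinTK+ mice. It failed the correction over all genes.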

How the results depend on the processing

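The absence of Prokr2 in the ablated SVZ is a matter of counts and does not depend on a model; its fitted log2 value ran from -9.72 to -6.66 over the tools and control sets. Of the 9 members, the number called in the striatum for NestinTK+GCV+ mice went from 0 to 1 (Prokr2) with DESeq2 and with a filter of 10 counts in 5 libraries, and was 0 to 1 when leaving out each mouse. The number called for the transgene under PBS in the SVZ became 1 with DESeq2 and without a filter (0 to 1 when leaving out each mouse), and that for GCV in striatal NestinTK+ mice became 1 with limma-voom (0 to 1). The striatal call of Slit1 for GCV in NestinTK- mice became 0 with limma-voom, library size alone, the 10-count filter and adjusted p, and the count became 2 without a filter (0 to 2 when leaving out each mouse); the interaction became 0 under the same 4 settings (0 to 2). For the other guidance genes in the SVZ, the 3 lower calls became 0 with limma-voom, at adjusted p and against NestinTK-GCV+ or NestinTK+PBS+ mice alone, and 1 with RLE size factors, with controls of the ablated mice's number series and without high-Ttr controls, and were 4 with DESeq2, library size alone and no filter (0 to 3 when leaving out each mouse). The 1 higher call became 0 in 8 of 11 settings: limma-voom, library size alone, the 10-count filter, controls of the ablated mice's number series, without high-Ttr controls, both single control groups and adjusted p (0 to 1). In the striatum the counts of 0 became 1 lower against NestinTK+PBS+ mice and 1 higher against either single control group. The cause of these changes was not tested beyond the fewer samples or genes that each setting leaves.

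Some log2 values near 0 turned sign in the striatum. Robo1 was -0.062 with controls of the ablated mice's number series (label numbers in the same range) and -0.10 against NestinTK+PBS+ mice (-0.12 to 0.083 when leaving out each mouse), Robo2 0.086 and 0.22 under the same settings, and Dcc -0.063 without high-Ttr controls and -0.59 against NestinTK-GCV+ mice (-0.058 to 0.31). Leaving out each mouse gave -0.21 to 0.059 for Slit2, -0.00065 to 0.30 for Erbb4 and -0.010 to 0.81 for Ntn1. In the SVZ Slit1 ran from -0.18 to 0.93 over the settings, Slit2 from -0.47 to 0.47 and Nrp2 from -1.64 to 2.99; leaving out each mouse gave -0.28 to 0.21 for Slit2 and -0.43 to 0.19 for Erbb4. Over the control SVZ libraries, the number of members with a permutation p under 0.05 against the neuroblast list became 2 (Nrp2 and Slit2) with deviations from each group's mean, 1 with the dividing list or without high-Ttr libraries, and 0 to 1 when leaving out each mouse. Single r values turned sign for Robo2 (0.014) and Ntn1 (-0.41) with deviations from group means, Erbb4 without high-Ttr libraries (-0.056), and Robo1 (0.11) and Erbb4 (-0.062) with the dividing list; leaving out each mouse gave -0.28 to 0.14 for Robo2, -0.10 to 0.42 for Ntn1 and -0.49 to 0.26 for Dcc. Striatal counts of 0 to 48 a mouse for Prokr2, Dcc and Ntn1 limit what those tests can show. No paired analysis was possible because the groups compared within a tissue share no mouse. The labels do not say whether the mouse numbers mark a litter or batch. Every NestinTK+GCV+ mouse falls in the higher number series and every NestinTK-PBS+ mouse in the lower, while the other control groups hold both.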
